A study of Rattus norvegicus with 1 sample.

Results

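Unplaced sequence of the rat genome was examined in control DNA of PCCl3 cells, an established line of rat thyroid follicular cells. It consists of assembled pieces of DNA that could not be assigned to a chromosome, which build rn4 joins end to end under the name chrUn. The members were all consecutive 10 kb bins of chrUn from its first base to the last tag at position 75736991, whether or not they held a tag. There were 7574 such bins, beside 255819 bins of chromosomes 1 to 20 and the other bins of the X chromosome and the mitochondrial genome. In order to give the background for a genome-wide search for binding of the thyroid transcription factor Pax8, the study sequenced DNA taken ahead of the immunoprecipitation. This is the single group here, labelled input DNA, with antibody none and 1 library. The cells were grown with thyrotropin and other hormones and cross-linked with formaldehyde. Sonication came before the non-immunoprecipitated (non-IP) DNA was taken, which the methods name as the control for peak calling. The library held 6714002 aligned tags of 50 bp, of which 1.33% were on chrUn.

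An assembly leaves a piece unplaced when its sequence does not tell where it belongs, and this is known to happen most with repeated, duplicated and satellite DNA. Where an assembly holds fewer copies of a sequence than the genome does, reads from all copies can align to those it holds. Peak callers such as MACS use control DNA to estimate the local background, so places where the control is uneven matter for what they call. No sequence letters are given here, because a genome of build rn4 was not used.

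The 5′ end of a tag gave its position, and distinct tags are those counted once per position and strand. Tags beyond the first at a position and strand were called repeated. With 1 library there was no error between replicates and no difference was tested, so values are given with 95% intervals (Clopper-Pearson for shares, Poisson for counts) that cover counting error only. Bins and chromosomes of a library are not replicates.

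Unplaced sequence was thinly covered and had a high share of repeated tags for its mean density with empty bins included. It held 89504 tags (Poisson 95% interval 88919 to 90092) and 78836 distinct tags (78287 to 79388). The mean was 10.4 distinct tags per bin with empty bins included, against 22.6 on chromosomes 1 to 20, a ratio of 0.461 (0.458 to 0.464). Each of the 20 chromosomes had a higher mean, from 14.8 on chromosome 15 to 38.3 on chromosome 10. Repeated tags were 11.9% of the tags of unplaced sequence (Clopper-Pearson 95% interval 11.7% to 12.1%) and 10.8% of those of chromosomes 1 to 20 (10.75% to 10.80%). By chromosome the share ran from 8.60% on chromosome 2 to 14.5% on chromosome 12. It lay below that of unplaced sequence on 16 chromosomes, and the 4 above it had mean densities of at least 25.2. Chromosome 15, next to unplaced sequence in mean density, had 9.49%. At matched bin counts, described below, the excess of unplaced sequence over chromosomes 1 to 20 was 0.999 percentage points.

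**Figure D1:**
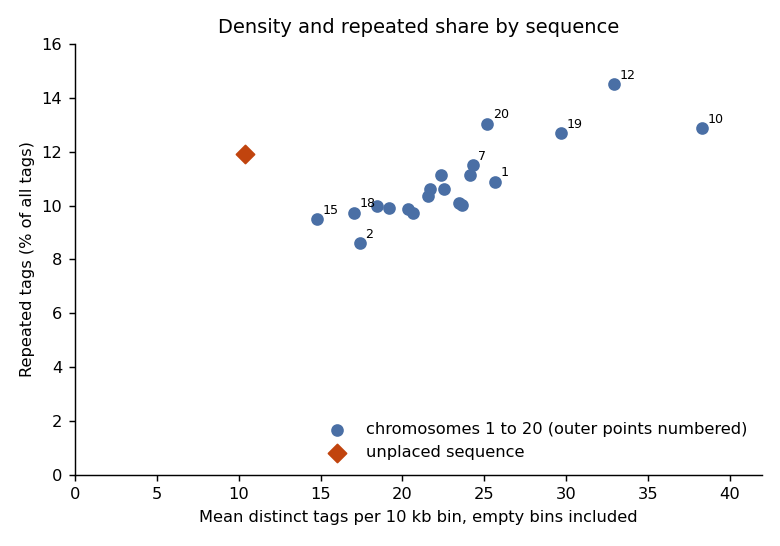
Each point is a sequence, with the mean number of distinct tags per 10 kb bin (empty bins included) on the x axis. The y axis gives repeated tags as a percentage of all its tags. Unplaced sequence (diamond, 10.4 and 11.9%) lies left of all 20 chromosomes (circles), and only 4 of them lie above it.

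A large part of the repeated tags lay in few bins. The 10 bins with the most distinct tags made up 0.132% of the bins of unplaced sequence and held 5.21% of its tags, but 14.4% of its repeated tags. Without them the repeated share was 10.8%, next to 10.7% on chromosomes 1 to 20 after the same share of their bins, 338 in number, was left out in the same way. Without the 1% of bins with the most distinct tags in each set, the order turned, with 9.89% in unplaced sequence and 10.3% on chromosomes 1 to 20. This order was not taken at like density, as the ratio of mean distinct counts fell from 0.461 to 0.414. Among the bins kept, those of 5 to 9 distinct tags had 7.51% in unplaced sequence and 5.80% on chromosomes 1 to 20. Bins of 10 to 19 had 7.82% and 6.36%, and those of 20 to 39 had 9.82% and 9.21%. In bins of 40 to 79, with 13.6% and 13.9%, unplaced sequence was not above the chromosomes. At single positions, 0.457% of the occupied positions of unplaced sequence had 4 or more tags, against 0.234% on chromosomes 1 to 20.

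Empty bins were frequent. Of the bins of unplaced sequence 2313 held no tag, or 30.5% (29.5% to 31.6%), whereas on chromosomes 1 to 20 the share was 6.04%. The highest share on a chromosome was 9.02%, on chromosome 12. The empty bins formed 530 runs, of which 223 were a single bin and 43 were at least 10 bins long. The longest run covered 259 bins from 34320001 to 36910000. The next went from 31910001 to 32800000 over 89 bins, and the third from 45750001 to 46510000 over 76 bins. On chromosomes 1 to 20 the longest run was 73 bins. Gaps of the assembly and sequence to which no tag was aligned cannot be told apart in the tag list.

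The occupied bins were sparse as well. The median occupied bin held 9 distinct tags, with quartiles of 4 and 17, and that of chromosomes 1 to 20 held 19, with quartiles of 11 and 31. Within a bin the tags also took up less room. In bins with 10 to 19 distinct tags, a mean of 6.18 of the 10 windows of 1 kb was occupied in unplaced sequence and 6.99 on chromosomes 1 to 20. In bins with 20 to 39 the means were 7.90 and 8.80. When only occupied 1 kb windows were counted, unplaced sequence came close to the chromosomes, with 3.03 distinct tags per window against 2.60 to 4.76 on single chromosomes and 7 of the 20 below it. In unplaced sequence 65.7% of the 1 kb windows were empty, against at most 43.1% on a chromosome (chromosome 15). The low mean density of unplaced sequence thus went with a large share of empty windows, while the mean count of occupied windows lay within the range of the chromosomes. Without the tag-rich bins described below it was 2.72, against 2.59 to 4.42 on single chromosomes treated alike, with 3 of the 20 below it. The median occupied 10 kb bin, in contrast, was below that of each chromosome, where it ran from 12 to 33.

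**Figure D2:**
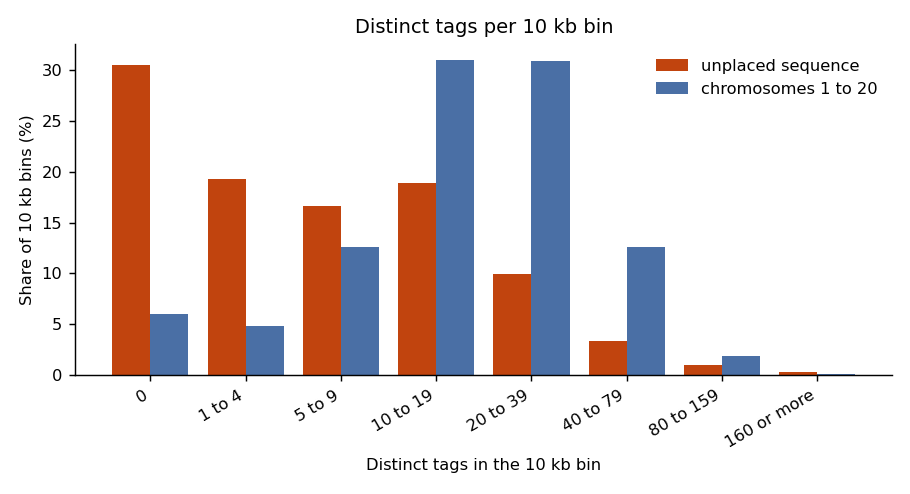
Bars give the share of 10 kb bins (y axis, %) by the number of distinct tags in the bin (x axis) for unplaced sequence and for chromosomes 1 to 20. Empty bins are the most frequent class in unplaced sequence (30.5%), and bins of 160 or more are 0.290% there against 0.0477% on the chromosomes.

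The counts of unplaced sequence were far more unequal than those of any chromosome. The variance-to-mean ratio of occupied bins, which is 1 for Poisson counting, was 37.3, against 8.62 to 21.3 on single chromosomes. The coefficient of variation left after the counting variance was removed was 1.56, against 0.632 to 0.840. The 1% of bins with the most distinct tags, 76 in number, held 14.8% of all distinct tags of unplaced sequence. On single chromosomes this share ran from 4.16% to 5.44%. The 10% with the most held 50.4%, against 29.3% over chromosomes 1 to 20. Both shares were taken over all bins, of which 30.5% were empty in unplaced sequence and 6.04% on chromosomes 1 to 20. They thus reflect empty bins as well as unequal counts of occupied bins. Without the 1% of occupied bins with the most tags, the variance-to-mean ratio of unplaced sequence was 16.5. The chromosomes were not trimmed in this way, so their range of 8.62 to 21.3 is not a like comparison.

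Very high bins were thus set against a thin background. Bins with at least 5 times the mean of chromosomes 1 to 20, that is 113 or more distinct tags, were called tag-rich. There were 55 in unplaced sequence, 0.726% of its bins (0.548% to 0.944%), and 0.43% of the bins of chromosomes 1 to 20 passed the same rule. The 3 lowest of them held 113, 113 and 114 distinct tags, and the 3 bins just below the rule held 112, 111 and 109. The order of both sets depended on the multiple. At 3 times the mean, 1.76% of the bins of unplaced sequence passed, fewer than the 3.34% of chromosomes 1 to 20. At 10 times, 6 bins of unplaced sequence passed, or 0.0792% (0.0291% to 0.172%), whereas 11 bins or 0.0043% did on all 20 chromosomes. The tag-rich bins of unplaced sequence held 12.1% of its distinct tags and 27.5% of its repeated tags, against 2.57% and 5.24% on chromosomes 1 to 20. On chromosome 10, however, 2.92% of the bins were tag-rich, so that 4 chromosomes had a higher share than unplaced sequence.

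The bin of unplaced sequence with the most distinct tags was chrUn:23400001-23410000. It held 575 distinct tags (Poisson 95% interval 529 to 624), 25.5 times the mean of chromosomes 1 to 20, and 35.4% of its 890 tags were repeated. A bin of chromosome 4 held more, with 712, and the highest bins of the other 19 chromosomes held fewer. The tags stood in separate groups, with 13 of the 20 windows of 500 bp occupied and at most 84 distinct tags in any of them. The bin before it, chrUn:23390001-23400000, was the sixth highest, with 254 distinct tags, of which 41.7% lay in the 500 bp window from 23393501. The repeated share there was 18.3%.

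The second bin was chrUn:440001-450000 with 499 distinct tags (456 to 545), a repeated share of 30.8% and 200 distinct tags in the window of 500 bp from 448501. The bins on either side of it held 166 and 170 distinct tags, which made a run of 3 tag-rich bins from 430001 to 460000. Near by, chrUn:480001-490000 was the third highest, with 386 distinct tags (348 to 426) and 848 tags in all. Its repeated share of 54.5% (51.1% to 57.9%) was the highest of all bins of unplaced sequence with at least 50 tags. The highest share of a tag-rich bin on chromosomes 1 to 20 was 71.1%. In this bin 92.0% of the distinct tags lay in 1 window of 500 bp, and 90% of them lay in 358 bp from 480028 to 480385. The fourth bin, chrUn:46990001-47000000, had a similar form. All of its 277 distinct tags (245 to 312) fell in 434 bp from 46991715 to 46992148, the other windows of the bin were empty, and 53.2% of its 592 tags were repeated.

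In these narrow groups a large part of the places for tags was taken. In the 358 bp of the third bin 48.6% of the positions on both strands carried a tag, and in the 293 bp that held 90% of the fourth bin 42.7% did. How often unrelated tags met at a position in these places was not calculated, and its part in the repeated shares of both bins was not tested.

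In the 5 others of the 10 highest bins at most 27.4% of the distinct tags lay in 1 window of 500 bp. The fifth highest, chrUn:24640001-24650000, held 270 distinct tags in 18 of 20 windows, and 13.2% of its tags were repeated. The seventh, chrUn:51910001-51920000, held 222 in 19 windows with 18.4% repeated, and the eighth, chrUn:38260001-38270000, held 219 in 16 windows with 16.7% repeated. The ninth, chrUn:29680001-29690000, held 215 in 17 windows, and the tenth, chrUn:47240001-47250000, held 206 in all 20. These last bins had low repeated shares, of 8.90% and 4.19%. The counting intervals of the seventh and the tenth overlap, from 194 to 253 and from 179 to 236, so the order of these bins is not fixed by the counts.

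**Figure D3:**
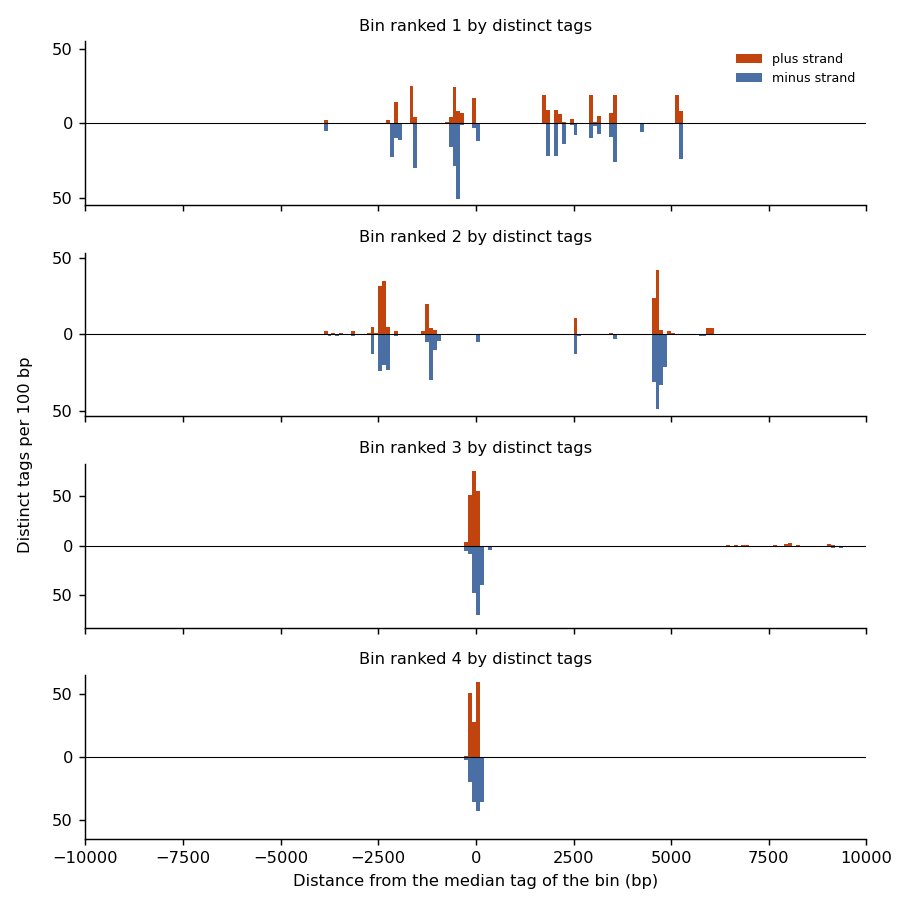
Distinct tags per 100 bp (y axis, plus strand upward and minus strand downward) against the distance from the median tag of the bin in bp (x axis), for the 4 bins of unplaced sequence with the most distinct tags. The first and second bins (575 and 499 distinct tags) show several separate groups, and nearly all tags of the third and the fourth (386 and 277) lie in 1 narrow group.

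Among bins with at least 50 tags, the repeated share was next highest, after the third and the fourth bin, in chrUn:420001-430000 (53.1% of 175 tags), chrUn:7970001-7980000 (50.0% of 382) and chrUn:29990001-30000000 (41.7% of 60). In chrUn:7970001-7980000, 101 of 191 distinct tags lay in 1 window of 500 bp. The position with the most tags was 8632984 on the plus strand, with 23 tags. Within 100 bp of it there were 18 occupied positions with 86 tags on the plus strand, but 2 positions with 3 tags on the minus strand. The second highest position, with 12 tags, was 8632987, on the same strand. On chromosomes 1 to 20 no position had more than 20 tags.

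Tag-rich bins of unplaced sequence spread to both sides of those of the chromosomes in their repeated share. The median was 17.0% in unplaced sequence and 18.7% over the 1099 tag-rich bins of chromosomes 1 to 20. The 5th and 95th percentiles, however, were 3.96% and 41.7% in unplaced sequence and 12.6% and 24.6% on the chromosomes. A share of 30% or more was found in 6 of the 55 bins, or 10.9% (4.11% to 22.2%), against 1% on chromosomes 1 to 20. A share under 10% was found in 12, or 21.8% (11.8% to 35.0%), against 1.55%. These limits were set after the values had been seen. At least 40% of the distinct tags lay in 1 window of 500 bp in 6 bins, against 1.73% of the tag-rich bins on the chromosomes, where the highest value was 86.5%. Of the 55 bins 35, or 63.6%, had 18 or more of the 20 windows occupied, against 89.2%.

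**Figure D4:**
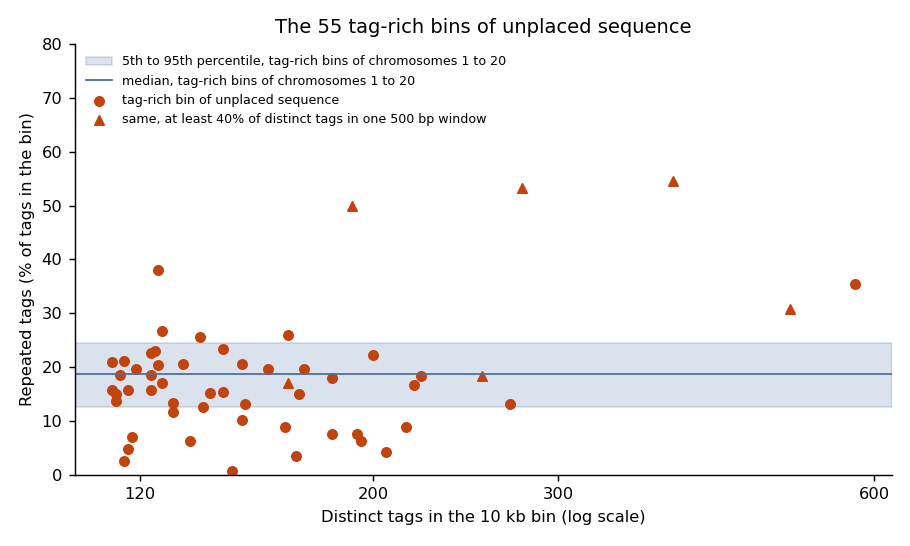
Each point is a tag-rich bin of unplaced sequence, with its distinct tags on the x axis (log scale) and repeated tags as a percentage of its tags on the y axis. The shaded band (12.6% to 24.6%) and line (18.7%) are the 5th to 95th percentile and the median of the tag-rich bins of chromosomes 1 to 20, and 12 points lie under 10%.

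The bins with many distinct tags and few repeated ones lay mostly together. Of the 12, 10 were found from 47180001 to 50300000, where 1 other tag-rich bin was present. In chrUn:50260001-50270000, 148 tags fell on 147 distinct positions, so that 0.676% were repeated (0.0171% to 3.71%). The neighbouring bins chrUn:50280001-50290000 and chrUn:50290001-50300000 had 7.09% and 4.88%, and chrUn:50270001-50280000 between them had 12.7%. These 4 bins made the longest run of tag-rich bins in unplaced sequence, with 520 distinct tags. In chrUn:50210001-50220000, 3.43% of 175 tags were repeated, and in chrUn:47180001-47190000, 2.52% of 119. Over all 312 bins from 47180001 to 50300000 the repeated share was 5.79% (5.24% to 6.39%). The limits of this region were set by the bins picked for low shares. Its share includes those 10 bins, so it is low in part by this choice. The mean there was 19.8 distinct tags per bin with 53 empty bins included, so that of occupied bins was higher. On chromosomes 1 to 20 bins of 10 to 19 distinct tags had 6.36% and those of 20 to 39 had 9.21%. Bins of 80 or more but under 160 had 17.8%. The 17 tag-rich bins of this kind on the chromosomes included 7 of the 49 tag-rich bins of chromosome 6 and 4 of the 323 of chromosome 10.

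In order to compare repeated shares at like density, bins were grouped by their distinct count. The share rose with the count in both sets. In unplaced sequence it was 6.34% in bins of 1 to 4 distinct tags, 7.51% in those of 5 to 9, 7.82% in those of 10 to 19 and 9.82% in those of 20 to 39. On chromosomes 1 to 20 the same classes had 5.63%, 5.80%, 6.36% and 9.21%. The intervals did not overlap in the classes of 5 to 9, 10 to 19 and 20 to 39. In bins of 40 to 79 the shares were 13.6% (13.0% to 14.1%) and 13.9%, and in bins of 80 or more but under 160 they were 17.2% (16.4% to 17.9%) and 17.8%, so that unplaced sequence was not above the chromosomes there. In bins of 160 or more the shares were 28.0% (27.0% to 29.1%) over 22 bins and 22.8% (22.3% to 23.3%) over 122 bins. This last class has no upper limit, and its bins were not alike in density, with means of 239.8 distinct tags in unplaced sequence and 191 on the chromosomes. In bins of 80 or more but under 160 the means were 109.8 and 99.4. With the tags of unplaced sequence divided over these classes, chromosomes 1 to 20 would have had 10.9% repeated tags, 0.999 percentage points below the share observed. Without the 10 bins with the most distinct tags this difference was 0.495 points, so a part of it lay outside those bins. By class, the share of unplaced sequence was the higher one in each class up to 39 distinct tags and in that of 160 or more.

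**Figure D5:**
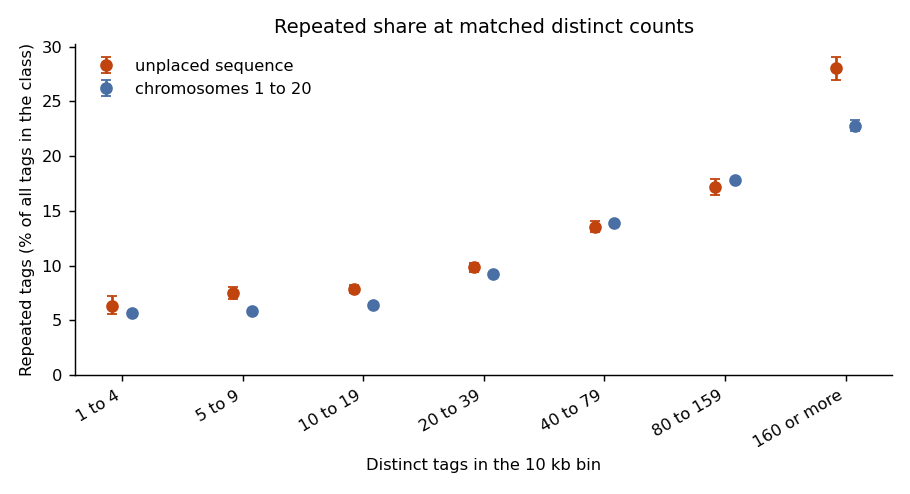
Repeated tags as a percentage of all tags (y axis) in 10 kb bins grouped by distinct count (x axis), for unplaced sequence and chromosomes 1 to 20. Bars are Clopper-Pearson 95% intervals, and the sets lie furthest apart in bins of 160 or more (28.0% and 22.8%).

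Strands were compared next, since fragments read from either end give plus and minus tags alike. Over all of unplaced sequence 49.8% of the distinct tags were on the plus strand (49.4% to 50.1%), which does not differ from 50% beyond counting error. In single bins the strands were less balanced. Among bins with at least 50 distinct tags, the interval of the plus share left out 50% in 21 of 244 bins of unplaced sequence, or 8.61% (5.41% to 12.9%), and in 3.17% of those of chromosomes 1 to 20. Among tag-rich bins it did so in 8 of 55, or 14.5% (6.50% to 26.7%), against 3% on the chromosomes. Of these 8, 5 had fewer plus than minus tags and 3 had more. The plus share was 40.5% (36.5% to 44.7%) in the highest bin, 41.7% (37.3% to 46.1%) in the second and 35.0% (29.2% to 41.3%) in chrUn:23390001-23400000. In the third and the fourth bin it was 51.6% and 50.5%. Outside the tag-rich bins, chrUn:420001-430000 had 18 plus and 64 minus distinct tags. This comparison was chosen after the values had been seen.

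The distance between tags of opposite strands was shorter than on the chromosomes, but this rested on few bins. The correlation of plus and minus 5′ ends was highest at 144 bp in unplaced sequence (r = 0.0102, over positions of a library), whereas single chromosomes had their highest value from 158 to 180 bp. Without the 10 bins with the most distinct tags it was highest at 161 bp (r = 0.00568), inside that range. With all tags it was at 106 bp, and with all tags but without the 10 bins at 154 bp. Shifts from 100 to 500 bp were searched, so 106 bp lies near the lower end of the search. The range of the chromosomes was taken from distinct tags only.

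Density also differed between stretches of chrUn. The empty bins divided it into 531 stretches of occupied bins with a median length of 4 bins, whereas the median on chromosomes 1 to 20 was 33. There were 254 stretches of at least 5 bins, which held 89.8% of the occupied bins. Their mean counts ran from 1.67 to 196 distinct tags per bin, with a median of 9.81 and quartiles of 5.91 and 15.2. Differences between these stretches made up 44.2% of the variance of log2 distinct counts of their bins, and those between the 3806 such stretches of chromosomes 1 to 20 made up 49.8%. Of the 254 stretches 8, or 3.15%, had a mean of at least 2 times that of chromosomes 1 to 20, against 7.44% of the stretches of the chromosomes. A mean of less than 0.25 times it was found in 63, or 24.8%, against 3.49%. Whether a stretch is 1 assembled piece cannot be told from the tags. Next to each other, bins had alike counts, with a correlation of log2(distinct tags + 1) of 0.753 over 7573 pairs against 0.695 to 0.799 on single chromosomes, given as a description. Pairs with empty bins are included, so in unplaced sequence the value reflects runs of empty bins as well as alike counts of occupied ones.

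Among stretches of at least 5 bins, the highest was chrUn:23370001-23420000, with a mean of 196 distinct tags over 5 bins. It contains the first and the sixth bin. The next, chrUn:51770001-52120000, was high over its length and not in a single place. Its 35 bins held 3619 distinct tags (3502 to 3739), with a mean of 103 and a median of 97, and 16 of them were tag-rich. They included the run of 3 tag-rich bins from 51840001 to 51870000, with 469 distinct tags. The mean of the 35 bins was 4.58 times that of chromosomes 1 to 20, and 18.5% (17.4% to 19.7%) of their tags were repeated. The stretch chrUn:50140001-50350000 had a mean of 68.6 over 21 bins with 5.76% (4.64% to 7.04%) repeated, and chrUn:47160001-47290000 had 64.8 over 13 bins with 5.07% (3.72% to 6.72%). In contrast, chrUn:25570001-25750000, with a mean of 63.7 over 18 bins and no tag-rich bin, had 16.1% (14.2% to 18.2%). These stretches of like mean density, with medians of 64, 44 and 67, thus had repeated shares whose counting intervals did not all overlap. Those with low shares overlap the region from 47180001 to 50300000, already described for its low repeated shares, so they are not a separate observation. The longest stretch, chrUn:11600001-13490000, was 189 bins long with a mean of 11.9, a highest bin of 31 and 6.42% repeated tags. The highest repeated share of a stretch of at least 5 bins, 29.6%, was in chrUn:210001-1080000. This stretch contains the second and the third bin and has a median of 12.

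In blocks of 1 Mb the counts of unplaced sequence ran from 0 to 5361 distinct tags with a median of 856, and those of chromosomes 1 to 20 had a median of 1970. Under 1000 distinct tags were found in 45 of 75 blocks, against 12.5% of blocks on the chromosomes. The highest block, from 25000001 to 26000000, held 5361 distinct tags with 17.4% repeated and only 3 empty bins, and 5 of its bins were tag-rich. The block from 51000001 to 52000000 held 3634 with 12 tag-rich bins. The block from 35000001 to 36000000 held none.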

How the data were processed

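DNA of PCCl3 cells taken ahead of Pax8 immunoprecipitation was sequenced by the study in 1 library. The label reads input DNA, but its sampling point and the control that the methods name for sequencing and peak calling are those of the non-IP DNA. The methods also describe an input condition, taken ahead of sonication and used for normalization in ChIP-Seq, and the label alone does not tell them apart. However, the paper reports sequencing of immunoprecipitated and non-IP conditions. Its count of filtered control reads, 6714002, equals the number of tags in this library. The authors aligned 50 bp reads to build rn4 with the MIRO pipeline, allowing 2 mismatches, and deposited the tags as positions and strands, without normalization. Aligner version, handling of reads that match more than once and removal of repeats are not given in the sources used. All 3 can change counts in unplaced sequence. One track line was dropped. Tags were counted here in 10 kb bins with Python 3.11.15, numpy 2.4.6, pandas 2.3.3 and scipy 1.17.1. The code was tested on simulated data. Bins were named by rule: the 10 with the most distinct tags, the 5 with the highest repeated share among bins of at least 50 tags, the 3 longest runs of empty and of tag-rich bins, and the position with the most tags. Bins of low repeated share and neighbours of named bins were named after their values were seen. Stretches, strand shares, 500 bp windows and 1 Mb blocks were added after the data had been seen. The members and rules were chosen with earlier results of these data known. Depth was 6714002 tags, and intervals cover counting error only, since amplified reads without molecular identifiers are not independent molecules. Positions are 1-based on rn4. Genes, repeats and base composition of rn4, and the immunoprecipitated library, were not analysed here.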

Additional observations from a re-analysis of the deposited data

How the results depend on the processing

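The mean of unplaced sequence stayed below that of chromosomes 1 to 20 under the 3 alternatives run for it, and its empty share stayed above theirs with 5 kb and 50 kb bins. The repeated share of 11.9% became 9.89% without the 1% of bins with the most distinct tags and 10.8% without the top 10 bins. The density ratio of 0.461 became 0.467 with all tags, 0.624 over occupied bins only and 0.414 without the 1% of bins in each set. The median occupied bin held 10 with all tags. Empty bins were 39.2% with 5 kb bins (9.19% on chromosomes 1 to 20) and 13.5% with 50 kb bins (2.48%), since larger bins are less often empty by construction. Unevenness, 37.3 as reported, was 60.7 when all tags were used, 108 in bins of 50 kb, and 16.5 once the 1% of occupied bins with the most tags had been left out. Tag-rich bins numbered 133 at 3 times and 6 at 10 times the mean, 61 with all tags and 49 with bins shifted by 5 kb. The top 1% of bins held 16.9% of all tags and, with 50 kb bins, 11.02% of distinct tags. The repeated share lay 1.88 points above that of chromosomes 1 to 20 at matched counts with 50 kb bins and 0.495 points above it without the top 10 bins. The strand shift of 144 bp became 106 bp with all tags and 161 bp without the top 10 bins, the latter chosen after the data had been seen. Where no reason is given, the cause was not tested. With a median of 9 distinct tags, a single occupied bin is known only within wide counting error. No paired analysis was possible because only 1 library was analysed.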
